A study of Arabidopsis thaliana with 8 samples.

Results

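The SnRK2 genes of Arabidopsis encode the plant-specific SNF1-related protein kinases of the second subfamily, and all 10 family members, SnRK2.1 to SnRK2.10, were described here in ThbZIP1-overexpressing and wild-type plants with and without abscisic acid (ABA). The members were taken by locus tag, as the whole family. All 10 genes had a probe on the Agilent Arabidopsis oligonucleotide array, out of 25415 locus tags with a probe, and together they were read by 12 probes, 2 each for SnRK2.1 and SnRK2.8 and 1 for each other gene. Total RNA of whole plants, root and shoot pooled, was hybridised in 1 colour to 8 arrays, 2 for each of 4 groups: ThbZIP1 overexpression given ABA (OE under ABA), wild type given ABA (WT under ABA), ThbZIP1 overexpression given water (OE in water) and wild type given water (WT in water). The study's methods call the water plants untreated. All plants were 4 weeks old and of the Columbia accession, the ABA dose was 10 µM, and the time was 3 h in every group. ThbZIP1 is a bZIP transcription factor of the salt-tolerant shrub Tamarix hispida, carried by T3 homozygous lines; the number of lines behind the arrays and the promoter of the transgene are not given in the sources used here, and no probe was used to check the transgene. The series text states that the replicates were different plants. Titles, source names and characteristics of the samples give these groups, while a free-text description field names other genotypes or treatments, so the groups rest on the title, source and characteristics fields.

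ABA is perceived by the PYR/PYL receptors, which on binding the hormone hold back the clade A PP2C phosphatases. These phosphatases otherwise keep the SnRK2 kinases inactive, so ABA releases the kinases, which then phosphorylate the ABF transcription factors, ion channels and other proteins. Raf-like kinases can phosphorylate and activate SnRK2s upstream. The family falls into 3 subclasses. Subclass 3 is strongly activated by ABA and holds SnRK2.2 (AT3G50500), SnRK2.3 (AT5G66880) and SnRK2.6 (AT4G33950, also called OST1). Subclass 2 is activated weakly by ABA and holds SnRK2.7 (AT4G40010) and SnRK2.8 (AT1G78290). Subclass 1 is not activated by ABA, while most of its kinases respond to osmotic stress, and it holds SnRK2.1 (AT5G08590), SnRK2.4 (AT1G10940), SnRK2.5 (AT5G63650), SnRK2.9 (AT2G23030) and SnRK2.10 (AT1G60940). This activation is of the protein by phosphorylation, whereas the arrays measured transcript.

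Values below are log2 signals minus the 75th percentile of log2 signal on the same array, so that 0 is the level of a fairly bright probe. Levels of different probes are not comparable and are set side by side only within a probe. A gene was called where limma's moderated test, adjusted over all 31260 probes tested by the method of Benjamini and Hochberg, gave an adjusted p under 0.05 and the fold was at least 2. All 12 SnRK2 probes passed the filter on dim probes. They were well above background on every array, except the SnRK2.6 probe on both arrays of OE in water.

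The samples differed in more than genotype. All 4 OE arrays were on 1 slide and the 4 WT arrays on the other 3 slides, scanned on another day with another version of the array design file, so genotype cannot be told apart from slide, scan day and design version. The design versions gave 208 probes different names, none of them a SnRK2 probe. WT arrays under ABA and in water were also on different slides, so ABA against water in WT and the interaction cannot be told apart from slide. Only ABA against water in OE was measured within a slide. Between 68.0% and 72.1% of gene probes were well above background per array, replicates correlated at r = 0.971 to 0.984 over 30109 probes, and WT in water replicate 1 had 1148 outlier spots against 6 to 24 on the others. All 5 green leaf markers were well above background on every array, apart from 1 dropped as an outlier spot on a WT array in water. Of 7 root markers 3 to 5 were well above background, and their summed log2 level was -0.53 to -0.22 in OE under ABA against -0.38 to -0.16 in WT under ABA, and -0.42 to 0.17 in OE in water against 0.25 to 0.42 in WT in water. Of the 4 root markers tested, SHV2 was at least 3.68-fold higher and NRT2:1 lower (log2 fold change -1.68) in OE in water than in WT in water, both called. SHV2 was also at least 3.27-fold lower with ABA in OE. The SHV2 probe was well above background only in OE in water and passed the filter only through those arrays, so its values are a description. The 4 flower markers (AG, AP3, PI and SEP3) were all higher in OE than in WT under both treatments with no overlap between arrays. Their summed log2 level was -1.75 to 0.34 in OE under ABA against -4.40 to -3.95 in WT under ABA, and 0.25 to 1.28 in OE in water against -5.26 to -2.42 in WT in water. Of them only SEP3 in water was called (log2 fold change 6.41). The SEP3 probe was well above background on 1 of the 2 arrays of each WT group. SEP3 and AP3 passed the filter only through the OE arrays, so their values are a description. AG and PI were also not well above background on some WT arrays. Arrays of OE and WT did not overlap for 65.9% of all genes under ABA and 74.1% in water. Sums of markers were taken before the logarithm, so the brightest markers weigh most in them. The part of the flower and root markers in the differences below was not tested. In whole plants, fewer cells of a type and less RNA per cell cannot be told apart.

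Under ABA, 2 SnRK2 genes differed between the genotypes: SnRK2.8 was lower in OE and SnRK2.2 was higher in OE. In water only SnRK2.8 was called, again lower in OE. No SnRK2 gene was called for ABA against water, in OE or in WT. Thus 2 of 10 members were called under ABA, where 9.94% of 19462 genes tested were (4.32% higher and 5.62% lower in OE). In water 1 of 10 was called, where 19.2% of genes were (9.88% higher and 9.35% lower in OE). For ABA against water, 0 of 10 were called in OE, where 2.12% of genes were, and 0 of 10 in WT, where 0.843% were. At an unadjusted p under 0.05 with a 2-fold change, 2 of 10 passed in OE, against 6.83% of genes, and 1 of 10 in WT, against 6.10%. With this few members, these shares do not set the family apart from all genes.

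**Figure D1:**
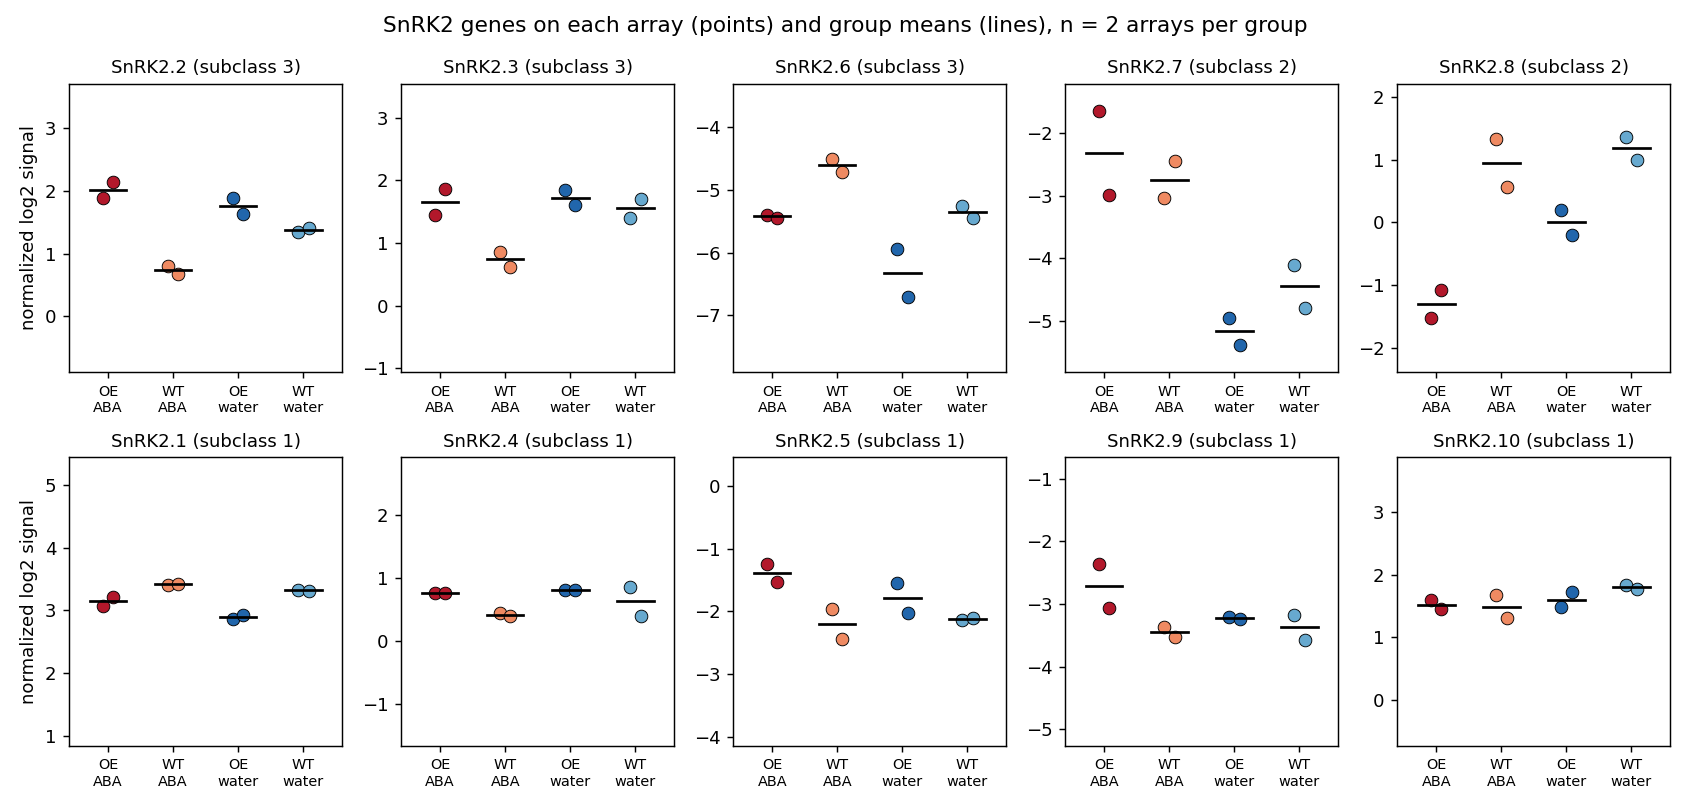
Normalized log2 signal of each SnRK2 gene (vertical axis, log2 relative to the array's 75th percentile, 1 probe per gene and axes of equal length) on each of the 8 arrays, by group; points are arrays and lines are means of 2. SnRK2.8 lies lowest in OE under ABA, while SnRK2.2 and SnRK2.3 lie lowest in WT under ABA.

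SnRK2.8, a subclass 2 kinase also known to phosphorylate the immune regulator NPR1, had the largest genotype difference of the family. Its probe of higher signal read -1.53 and -1.08 in OE under ABA, against 0.56 and 1.32 in WT under ABA. In water it read -0.19 and 0.20 in OE, against 1.00 and 1.36 in WT. The OE arrays lay below the WT arrays in both treatments, and the 2 OE arrays under ABA were the lowest of all 8. The gene was 4.75-fold lower in OE than in WT under ABA (log2 fold change -2.25, SE 0.32, limma adjusted p = 0.0111) and 2.26-fold lower in water (log2 fold change -1.18, SE 0.32, limma adjusted p = 0.0378).

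A second probe of SnRK2.8 gave the same picture at a much dimmer signal. It read -4.77 and -4.58 in OE under ABA, against -2.80 and -1.97 in WT under ABA. In water it read -3.68 and -3.34 in OE, against -2.38 and -1.93 in WT. Both genotype differences passed at this probe as well, at 4.90-fold lower in OE under ABA (limma adjusted p = 0.0103) and 2.56-fold lower in OE in water (limma adjusted p = 0.0246). Within each probe the OE and WT arrays did not overlap. Within a treatment this held for 65.9% of all genes under ABA and 74.1% in water. The call in water was the weaker, and was lost when any of the 4 arrays of that comparison was left out (adjusted p between 0.0738 and 0.168). The call under ABA was lost without OE under ABA replicate 1 (adjusted p = 0.0588) and without WT under ABA replicate 1 (adjusted p = 0.0543), while the fold change stayed at -2.02 and -1.87 on the log2 scale. With normexp background correction neither call was kept (adjusted p = 0.0606 under ABA and 0.118 in water), and with all probes tested, dim ones included, the adjusted p in water was 0.0637. The methods' t-test did not call SnRK2.8 under ABA even unadjusted, and after adjustment it called SnRK2.8 in neither treatment.

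**Figure D2:**
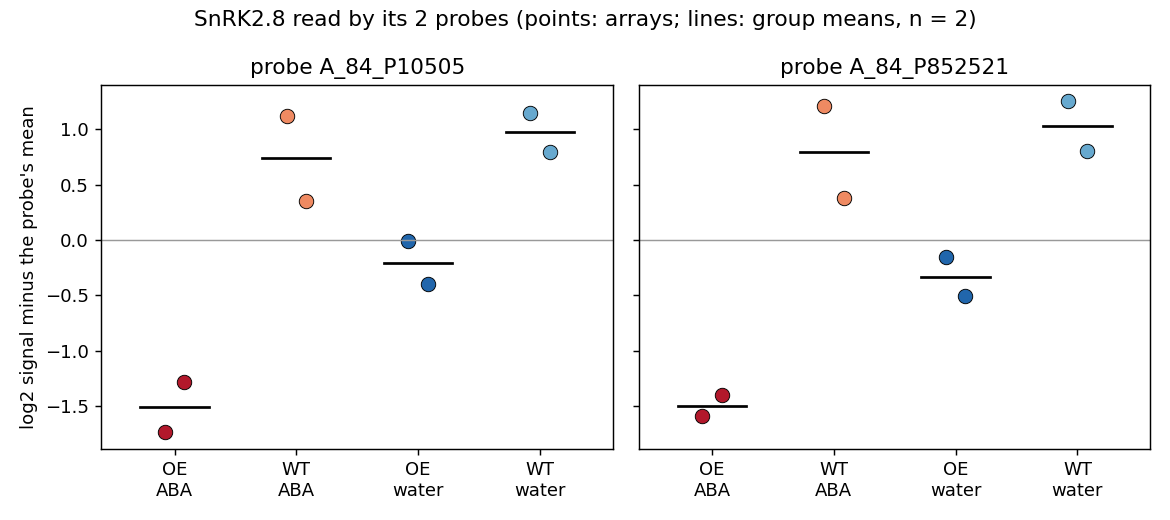
Log2 signal of the 2 SnRK2.8 probes, each minus its own mean over the 8 arrays (vertical axis, log2), by group; points are arrays and lines are means of 2. At either probe every OE array is below every WT array of the same treatment.

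ABA against water gave SnRK2.8 a log2 fold change of -1.31 in OE (SE 0.32, limma adjusted p = 0.122) and of -0.24 in WT (limma adjusted p = 0.761), neither of which passed. In OE the arrays under ABA (-1.53 and -1.08) lay apart from those in water (-0.19 and 0.20), whereas in WT they overlapped. The difference between these responses, the genotype by treatment interaction, was -1.07 (95% interval -2.17 to 0.03, adjusted p = 0.429) and was not called.

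SnRK2.2 belongs to the ABA-activated subclass 3, and works largely redundantly with SnRK2.3 in germination and seedling growth. It read 1.88 and 2.14 in OE under ABA, against 0.68 and 0.80 in WT under ABA. In water it read 1.63 and 1.89 in OE, against 1.35 and 1.41 in WT. The 2 WT arrays under ABA stood below the other 6 arrays. Under ABA SnRK2.2 was 2.42-fold higher in OE than in WT (log2 fold change 1.27, SE 0.16, 95% interval 0.88 to 1.67, limma adjusted p = 0.00842), and in water the difference was 0.38 (SE 0.16, limma adjusted p = 0.119). The call under ABA was lost without WT under ABA replicate 1 (adjusted p = 0.0516) and without WT under ABA replicate 2 (adjusted p = 0.0560), with log2 fold changes of 1.34 and 1.21. With normexp the adjusted p was 0.0933, and with the methods' t-test after adjustment, which called no probe of the array, it was 0.425.

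The mean of SnRK2.2 was 2.01 ± 0.19 in OE under ABA and 1.76 ± 0.18 in OE in water, and 0.74 ± 0.09 in WT under ABA and 1.38 ± 0.04 in WT in water (SD, n = 2 arrays each). ABA against water was -0.64 in WT (SE 0.16, unadjusted p = 0.00759, limma adjusted p = 0.149) and 0.25 in OE (limma adjusted p = 0.505). Neither passed the threshold. The interaction was 0.89 (95% interval 0.33 to 1.45) with an adjusted p of 0.265, so the treatment responses of SnRK2.2 were not shown to differ between genotypes.

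SnRK2.3, its close relative, was likewise lowest in WT under ABA. It read 1.45 and 1.86 in OE under ABA, against 0.62 and 0.86 in WT under ABA. In water it read 1.61 and 1.84 in OE, against 1.40 and 1.70 in WT, which overlapped. The difference under ABA passed the adjusted p but not the fold, at 1.88-fold higher in OE (log2 fold change 0.91, SE 0.21, limma adjusted p = 0.0380). ABA against water was -0.81 in WT (limma adjusted p = 0.153) and -0.07 in OE (limma adjusted p = 0.905), and the interaction was 0.74 (adjusted p = 0.408).

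Among the 45 pairs of SnRK2 genes, SnRK2.2 and SnRK2.3 had the most alike profiles over the 8 arrays. After each probe's own mean was subtracted, their root mean square difference was 0.21 on the log2 scale. SnRK2.7 and SnRK2.8, the 2 members of subclass 2, were the least alike, at 1.89. Both statements describe the same 8 arrays as the comparisons above. The measure is not scaled by the spread of a gene, and SnRK2.7 and SnRK2.8 had the widest SDs of the family over these arrays, 1.33 and 1.08. Probe sequences were not used here, so cross-hybridisation between close relatives was not tested.

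SnRK2.6 (OST1), the kinase of stomatal closure, had values opposite in sign to those of SnRK2.2 and SnRK2.3 for OE against WT and for ABA against water in WT, though not for the interaction. It was dim on every array, with -5.44 and -5.40 in OE under ABA against -4.71 and -4.50 in WT under ABA, and -6.71 and -5.94 in OE in water against -5.45 and -5.25 in WT in water. OE lay below WT in both treatments, and arrays under ABA lay above those in water in OE and in WT. On both arrays of OE in water the probe was not well above background, so fold changes with that group are given as bounds beside the fitted values.

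In water SnRK2.6 was at least 1.83-fold lower in OE than in WT (limma adjusted p = 0.0378), and under ABA it was 1.76-fold lower in OE (log2 fold change -0.82, SE 0.26, limma adjusted p = 0.0864). Neither was called. Without OE in water replicate 1, the SnRK2.6 difference in water was called (log2 fold change -1.36, adjusted p = 0.0197), with the probe not well above background on the array that remained. ABA against water gave at least 1.75-fold higher signal in OE by such a bound (fitted log2 fold change 0.90, limma adjusted p = 0.181). In WT its log2 fold change was 0.75 (SE 0.26, limma adjusted p = 0.248). With normexp background correction the difference under ABA was of the other sign, 1.15, and the difference in water was -0.18. SnRK2.6 is known for guard cells, and the summed level of the 5 guard cell markers was 5.76 to 6.29 in OE under ABA against 6.08 to 6.59 in WT under ABA, and 5.75 to 5.93 in OE in water against 6.32 to 6.41 in WT in water. This sum mostly reflects TGG1, whose group means were 5.81 to 6.34, while the other guard cell markers had negative group means. Under ABA 1 of the 5 was higher in OE (KAT1, log2 fold change 0.25), and in water all 5 were lower. No guard cell marker was called, and their part in the SnRK2.6 values was not tested.

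SnRK2.7, the other subclass 2 gene, had the largest difference between ABA and water in the family. In OE it read -2.98 and -1.65 under ABA, against -5.38 and -4.96 in water. In WT it read -3.05 and -2.46 under ABA, against -4.79 and -4.11 in water. Every array under ABA was above every array in water, in both genotypes together. The level under ABA was 7.20-fold that in water in OE (log2 fold change 2.85, SE 0.49, 95% interval 1.64 to 4.06, limma adjusted p = 0.0527) and 3.25-fold in WT (log2 fold change 1.70, SE 0.49, 95% interval 0.49 to 2.91, limma adjusted p = 0.183), so neither was called.

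The 2 OE arrays of SnRK2.7 under ABA had an SD of 0.94 on the log2 scale, the widest of its 4 groups. Restricting the tests to probes well above background on all arrays gave an adjusted p of 0.0409 for OE, and fitting the 2 OE groups alone, all on 1 slide, gave 0.131 for the same log2 fold change. Without OE under ABA replicate 1 the log2 fold change in OE was 2.18, without replicate 2 it was 3.51, and with normexp it was 1.90, none of them called. Between genotypes, SnRK2.7 differed by 0.43 under ABA (limma adjusted p = 0.569) and by -0.72 in water (limma adjusted p = 0.301). The interaction was 1.15 (95% interval -0.56 to 2.86, adjusted p = 0.559).

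**Figure D3:**
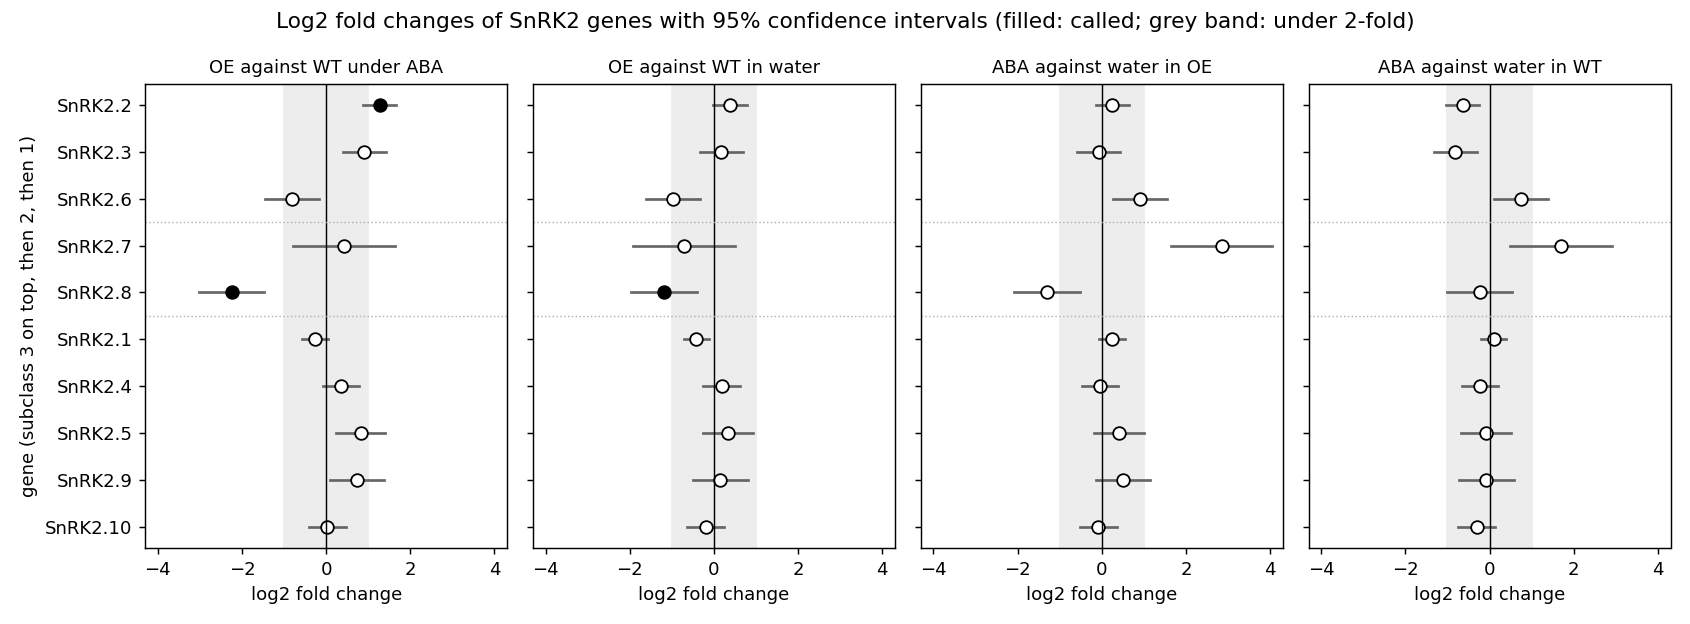
Log2 fold change of each SnRK2 gene (horizontal axis) in the 4 comparisons, with 95% confidence intervals from the limma fit over 8 arrays; filled points were called and the grey band spans changes under 2-fold. The filled points are SnRK2.2 and SnRK2.8 under ABA and SnRK2.8 in water, and SnRK2.7 has the largest open value, 2.85 for ABA in OE.

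The 5 subclass 1 genes had no called difference in any comparison, and all of their log2 fold changes lay between -0.42 and 0.82. Among all genes, 9.94% were called for OE against WT under ABA and 19.2% in water. For ABA against water the shares were 2.12% in OE and 0.843% in WT. With 5 genes, the lack of calls does not set the subclass apart from all genes. SnRK2.1 read 3.07 and 3.22 in OE under ABA against 3.41 and 3.42 in WT under ABA, and 2.86 and 2.93 in OE in water against 3.31 and 3.32 in WT in water. At this probe OE arrays were below WT arrays in both treatments, and in water the difference of -0.42 passed the adjusted p (0.0474) at only 1.34-fold. The second, dimmer SnRK2.1 probe gave -0.26 in water (adjusted p = 0.284), and under ABA its OE arrays (0.93 and 1.26) overlapped its WT arrays (1.03 and 1.29), with a difference of -0.06 (adjusted p = 0.825).

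SnRK2.5 read -1.52 and -1.24 in OE under ABA against -2.45 and -1.96 in WT under ABA, a difference of 0.82 (SE 0.24, limma adjusted p = 0.0698). SnRK2.9 read -3.06 and -2.36 in OE under ABA against -3.53 and -3.37 in WT under ABA, a difference of 0.74 (SE 0.26, limma adjusted p = 0.108). Both were higher in OE and failed the threshold. Their OE and WT arrays under ABA did not overlap, which held for 65.9% of all genes. Without OE under ABA replicate 2 the log2 fold change of SnRK2.9 was 1.09. In water SnRK2.5 differed by 0.33 (adjusted p = 0.323) and SnRK2.9 by 0.16 (adjusted p = 0.677).

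SnRK2.4 and SnRK2.10, which are known from roots under salt stress, had the smallest ranges of the family over the 8 arrays, at 0.47 and 0.53 on the log2 scale. SnRK2.4 averaged 0.77 in OE under ABA against 0.41 ± 0.03 in WT under ABA, and 0.81 in OE in water against 0.63 ± 0.33 in WT in water (SD, n = 2 arrays each). SnRK2.10 averaged 1.52 ± 0.10 in OE under ABA against 1.49 ± 0.26 in WT under ABA, and 1.60 ± 0.17 in OE in water against 1.80 ± 0.05 in WT in water. Of all genes tested, 12.8% had a smaller range than SnRK2.4 and 16.4% a smaller range than SnRK2.10, whereas 93.3% had a smaller range than SnRK2.7 and 87.8% a smaller one than SnRK2.8.

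Of the ABA-activated subclass 3, 1 of 3 genes was called, SnRK2.2 under ABA, where 1 of 7 genes of subclasses 1 and 2 and 9.94% of all genes were. For OE against WT in water 0 of 3 and 1 of 7 were called, against 19.2% of all genes. No difference between members or subclasses was tested. In OE against WT under ABA the 3 members of subclass 3 had log2 fold changes of 1.27, 0.91 and -0.82 (median 0.91). The median was 0.35 over the 7 members of subclasses 1 and 2 and 0.08 over all genes tested. In water the medians were 0.17 for subclass 3, -0.20 for subclasses 1 and 2, and 0.06 for all genes. For ABA against water in WT they were -0.64, -0.08 and -0.05, and in OE they were 0.25, 0.25 and -0.06. In WT the ABA against water values were -0.64 for SnRK2.2 and -0.81 for SnRK2.3, but 0.75 for SnRK2.6. Medians over 3 genes are given as a description.

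Array values of OE and WT did not overlap for 8 of 10 SnRK2 genes under ABA, where this held for 65.9% of genes, and for 7 of 10 in water, where it held for 74.1%. Between ABA and water they did not overlap for 7 of 10 in OE, against 48.6% of genes, and for 6 of 10 in WT, against 53.0%. The 4 comparisons share arrays in pairs. No gene passed for the interaction (0 of 10 SnRK2 genes and 0 of 19462 genes with limma; at an unadjusted p under 0.05 and 2-fold, 0 of 10 and 1251 genes, 6.43%). Its value was above 0 for 9 of 10 SnRK2 genes, SnRK2.8 being the exception, and for 10034 of 19462 genes, all read from the same 8 arrays. For SnRK2.6 that value rests on OE in water, where its probe was not well above background.

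Other genes of the ABA pathway were called for the treatment. Of the lists, 9 of 14 receptor genes, 7 of 9 phosphatase genes, 15 of 18 Raf-like kinase genes and all 11 substrate or partner genes and 10 reporter genes passed the filter on dim probes. Of the clade A PP2C phosphatases, which inactivate SnRK2s, 6 of 7 tested genes in OE and 5 of 7 in WT were called higher with ABA and none lower, with median log2 fold changes of 2.8 and 2.67. Among all genes, 1.71% were called higher with ABA in OE and 0.581% in WT. HAI1 reached a log2 fold change of 6.0 in OE (limma adjusted p = 0.00647) and 6.13 in WT (limma adjusted p = 0.0122). Of the PYR/PYL receptors, 4 of 9 tested genes in OE and 3 of 9 in WT were called lower with ABA and none higher. Both counts include PYL6, whose probe passed the filter only through the water arrays, so they are a description. Among all genes 0.416% were called lower in OE and 0.262% in WT. The other tested receptors ranged up to 0.63 in OE and 0.52 in WT, and the medians over all tested receptors were -1.14 and -0.80.

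Among the receptors PYL4 changed by -4.31 in OE (limma adjusted p = 0.00350) and -3.17 in WT (limma adjusted p = 0.0107). PYL6 was at least 9.43-fold lower in OE given ABA, where its probe was not well above background, and changed by -4.78 in WT, where it was well above background on 1 of the 2 ABA arrays. It is counted among the called receptors in OE and in WT. Its probe passed the filter only through the water arrays, so its values are a description. Both genes encode receptors that bind ABA and the phosphatases. Of the 15 Raf-like kinase genes tested, 1 was called, AT4G23050, with a log2 fold change of 1.52 for ABA in OE (limma adjusted p = 0.0258). Of all genes, 2.12% were called there. In WT 0 of 15 were called, against 0.843% of all genes, and AT4G23050 changed by 1.00 (limma adjusted p = 0.0946).

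Of 11 genes for SnRK2 substrates and partners, 3 were called higher with ABA in OE, where 1.71% of all genes were, and 2 in WT, where 0.581% were. ABF3, a bZIP factor that SnRK2s phosphorylate, changed by 3.08 in OE (limma adjusted p = 0.00608) and by 2.35 in WT (limma adjusted p = 0.0261), where 1 of the 2 water arrays was dropped as an outlier spot. ABF2, of the same group, changed by 1.53 in OE and 1.46 in WT. Of 10 ABA-induced reporter genes, 6 were called higher in OE and 2 in WT, against the same shares of all genes. LTI65, also called RD29B and counted in both, was at least 3.74-fold higher with ABA in OE and at least 11.9-fold higher in WT. Its probe was not well above background in water and passed the filter only through the ABA arrays, so its values are a description. The other reporter gene called in WT was HB-7 (log2 fold change 2.8).

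**Figure D4:**
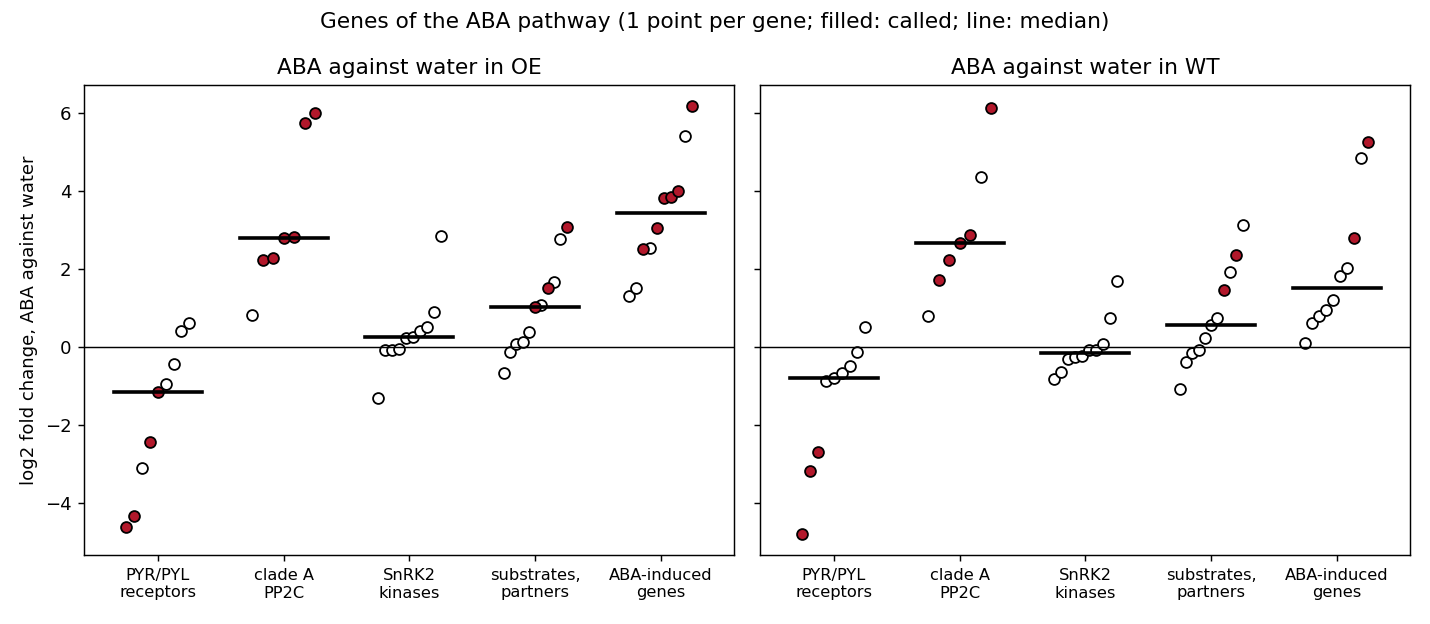
Log2 fold change of ABA against water (vertical axis) for tested genes of 5 groups in OE (left) and WT (right); each point is a gene, filled points were called and lines are medians. Filled points are seen among receptors below 0 and among phosphatases, substrates and reporter genes above 0, and none among the SnRK2 genes. PYL6 and LTI65 are drawn at their fitted values, although a group of each was not well above background.

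Between genotypes, 9.94% of all genes were called under ABA and 19.2% in water. Under ABA, 2 of 9 receptors were lower in OE (PYL5, log2 fold change -2.08, and PYL4, -1.30), 1 of 11 substrates and partners was higher (ABF1, 1.41), and 1 of 10 reporter genes was higher (ERD10, a dehydrin, 1.06, called at 1 of its 2 probes). In water, PYL5 was lower in OE (-2.33), as were ABF4 (-1.24), the NAC factor RD26 (-3.10) and the homeodomain factor HB-7 (-1.20). PYL5 was called at 2 of its 3 probes in both comparisons. No phosphatase and no Raf-like kinase was called in either comparison. These counts share slide, scan day and design version with the SnRK2 genotype comparisons, and no test was made of a difference between lists.

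By the same measure as between SnRK2 genes, the genes most like SnRK2.8 over the 8 arrays, among 26100 probes, were GPX7 (a glutathione peroxidase), AT2G29320 and AT2G26695, with root mean square differences of 0.19, 0.19 and 0.22 on the log2 scale. Those most like SnRK2.2, among 26101 probes, were AT3G28370, AT4G31240 and TLP11, at 0.10, 0.11 and 0.13. All these profiles share the same 8 arrays.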

How the data were processed

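The authors deposited the scanner output of 8 arrays of 1 colour, whose processed signal is an intensity from Agilent Feature Extraction 10.7.3.1 after background subtraction, and a series table of log2 values that the authors had normalized (each of the 8 columns has a median of 7.59, and r with the scanner signal is 0.9998 to 1.00). The design files name TAIR10, and RefSeq names of TAIR10.1 matched 34376 of 43603 gene probes (78.8%). The scanner output was used as the main source. Control and outlier spots were left out, spots of a probe were averaged, and log2 intensities had the array's 75th percentile subtracted. A probe was tested where some group had it well above background on each of its 2 arrays (31260 probes), and 12343 dim probes were left out. limma 3.58.1 in R 4.3.3 (lmFit, eBayes, 4 group means, 4 residual and 1.99 prior degrees of freedom) was used, after a test on simulated data. A gene was read from its tested probe of highest mean; 1151 tested probes lacked at least 1 array. For a group whose arrays did not detect a probe, a bound is given against the array's dimmest detected probe (or the probe's own signal, if higher). Bounds are for group means and leave out the spread between arrays, so they are not guaranteed minima. Of each pathway list, at most the 2 highest and 2 lowest called genes per comparison were named. The members, lists and named genes were chosen with earlier results of these data known. Alternatives were other normalizations, filters, thresholds, probe summaries, blocks and tests, and each array left out in turn. Array number limits the precision.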

Additional observations from a re-analysis of the deposited data

How the results depend on the processing

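All called SnRK2 differences kept their direction under every alternative run. Of the 935 values under alternatives for 50 log2 fold changes, 900 kept direction and side of the threshold, 15 lost the call, 3 gained it and 17 changed sign, none of them called. Most of the 900 were values called in neither fit. By definition only a difference called in the main fit could lose its call. Under ABA the call was lost in 4 of 19 alternatives for SnRK2.2 and in 4 of 19 for SnRK2.8, and in water in 7 of 19 for SnRK2.8. Counts of called SnRK2 genes are given where they differed from the main fit. For OE against WT under ABA the count was 2, and 0 with normexp background correction, 1 with the methods' t-test unadjusted, 0 with it adjusted, 3 with no minimum fold (SnRK2.3 added), and 0 to 3 with 1 array left out (SnRK2.9 added without OE under ABA replicate 2). In water it was 1, and 0 with normexp, 0 without the filter on dim probes, 3 with no minimum fold (SnRK2.1, SnRK2.6 and SnRK2.8), 0 with the methods' t-test adjusted, and 0 to 1 with 1 array left out (SnRK2.6 in place of SnRK2.8 without OE in water replicate 1). For ABA in OE it was 0, and 1 with only probes well above background on all arrays (SnRK2.7) and 2 at an unadjusted p. For ABA in WT it was 0, and 1 at an unadjusted p. Left-out arrays gave 0 for ABA in OE, ABA in WT and the interaction.

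Signs changed as follows; the cause was not tested. With normexp, OE against WT under ABA was 1.15 for SnRK2.6 and -0.092 for SnRK2.10. This correction moved the median of all probes to 0.35, against 0.02 in the main fit, and it used median spot signals. With 1 array left out, OE against WT under ABA ran from -0.23 to 1.1 for SnRK2.7 and from -0.15 to 0.21 for SnRK2.10, and in water from -0.049 to 0.41 for SnRK2.4 and from -0.039 to 0.35 for SnRK2.9. ABA against water in OE ran from -0.27 to 0.14 for SnRK2.3 and from -0.20 to 0.040 for SnRK2.10. In WT it ran from -0.45 to 0.013 for SnRK2.4, from -0.32 to 0.16 for SnRK2.5, from -0.62 to 0.14 for SnRK2.8 and from -0.27 to 0.12 for SnRK2.9. The interaction ran from -0.23 to 0.54 for SnRK2.6, whose probe was not well above background in OE in water, and from -0.059 to 0.40 for SnRK2.4.

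With slide as a random block (consensus correlation -0.163) the counts of called SnRK2 genes were those of the main fit. No slide held both genotypes, so this block could not separate genotype from slide. Replicate numbers did not pair the samples: deviations of same-numbered arrays correlated at -0.18 to 0.11 over 6 pairs of groups. With the replicate block the counts of called SnRK2 genes were 2 under ABA, 1 in water and 0 in the other comparisons. Called probes ranged from 0 to 4959 under ABA (3220 in the main fit), 0 to 9724 in water (5951), 0 to 2031 for ABA in OE (639), 0 to 1812 for ABA in WT (251) and 0 to 2026 for the interaction (0).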
